A study of Rattus norvegicus with 15 samples.

Results

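The 9 genes described here code for parts of the transforming growth factor beta (TGF-beta) pathway: the ligands Tgfb1, Tgfb2 and Tgfb3, the latent TGF-beta binding proteins Ltbp1 and Ltbp2, the receptors Tgfbr1 and Tgfbr2, and the target genes Smad7 and Ccn2. They were chosen by name, as the rows of the count table that carry these gene symbols, with earlier results of these data known. All 9 were found among the 32623 genes of the table, and all 9 were among the 14417 genes that passed the filter on low counts and were tested.

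Liver RNA of male Wistar rats was sequenced to ask which genes respond to cirrhosis, and which of these respond to eplerenone, a blocker of the mineralocorticoid receptor (MR). Control rats received no treatment. Rats of the cirrhosis group inhaled carbon tetrachloride (CCl4), a hepatocyte toxin, and drank water with phenobarbital at 0.35 g/L over 12 weeks. Rats of the cirrhosis & eplerenone group had the same exposure and, starting at week 8, also ate eplerenone at 100 mg/kg body weight in hazelnut spread until week 12. Livers were removed 7 to 10 days after CCl4 had ended, and all groups were of 1 strain and sex with no altered gene. The labels list 5 rats per group, and the count table holds 4 controls (replicates 2 to 5), 5 cirrhosis and 5 cirrhosis & eplerenone rats, with control replicate 1 not analysed here. The study excluded 1 control that differed from the other 4 in a principal component analysis, so the controls are a selected group.

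Some features of these groups limit what a difference between them can be tied to. The study picked the sequenced rats by how well cirrhosis induction or eplerenone treatment had worked, so the groups are not random draws from the treated animals. Controls received neither phenobarbital nor CCl4, and the effects of these agents cannot be told apart. The first number in the rats' label codes, whose meaning the labels do not give, was 13 or 16 in controls and 15 or 20 in the CCl4-treated rats, so it cannot be told apart from CCl4 treatment either. In whole liver, fewer cells of a type and less RNA per cell cannot be told apart.

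Libraries held 16157491 to 21574767 counted reads, and 3 counts stood for 0.121 to 0.191 fragments per 1000000 (FPM) of library sizes scaled by the trimmed mean of M-values (TMM). All 10 hepatocyte markers were detected in every group, with a summed level between 86810 and 175100 FPM per rat. The rats' expression over all genes tested was also placed on a line from the control mean (0) to the cirrhosis mean (1), each rat left out of its own group mean. Controls lay between -0.0703 and 0.133. Cirrhosis replicate 5 lay at 0.373, apart from the other cirrhosis rats at 0.856 to 1.24, and cirrhosis & eplerenone replicate 3 lay at 0.998, the highest of its group, followed by replicate 5 at 0.834 and the others at 0.203 to 0.562. Member calls in each comparison are given with and without cirrhosis replicate 5 and cirrhosis & eplerenone replicate 3.

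TGF-beta is secreted in a latent form, in which the ligand stays wrapped in its own propeptide and is tethered to the matrix by latent TGF-beta binding proteins. Once freed, for example by integrins, it binds the type II receptor, which recruits and phosphorylates the type I receptor, and the signal passes through SMAD2 and SMAD3 with SMAD4 to target genes. In the injured liver this pathway is known for turning hepatic stellate cells into collagen-producing myofibroblasts.

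Promoter sequences are shown for Ccn2, Ltbp2 and Ltbp1, because these members were the ones that rose in both comparisons with control below. The sequences are from RefSeq on assembly GRCr8 and span 250 bases before to 50 bases after the annotated start, read 5′ to 3′ on the minus strand, at chr1:22624565-22624864 for Ccn2, chr6:110257249-110257548 for Ltbp2 and chr6:26177252-26177551 for Ltbp1. The counts were made on rn6, another assembly, so the start sites in use in these livers were not examined. Capitals mark the SMAD binding core CAGAC (or GTCTG on the other strand), the core of TEAD binding sites GGAATG (or CATTCC) and the TATA box core TATAAA (or TTTATA).
Ccn2: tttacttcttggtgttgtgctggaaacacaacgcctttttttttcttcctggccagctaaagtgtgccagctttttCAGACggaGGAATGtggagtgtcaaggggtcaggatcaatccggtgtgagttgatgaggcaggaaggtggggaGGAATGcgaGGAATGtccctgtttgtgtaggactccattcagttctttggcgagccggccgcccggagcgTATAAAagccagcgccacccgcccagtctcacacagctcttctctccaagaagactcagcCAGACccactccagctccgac
Ltbp2: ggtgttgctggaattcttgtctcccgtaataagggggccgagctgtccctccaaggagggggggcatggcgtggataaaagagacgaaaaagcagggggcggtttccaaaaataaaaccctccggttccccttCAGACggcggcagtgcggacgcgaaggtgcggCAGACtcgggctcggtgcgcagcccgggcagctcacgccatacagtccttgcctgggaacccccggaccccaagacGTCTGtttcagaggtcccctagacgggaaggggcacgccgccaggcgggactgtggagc
Ltbp1: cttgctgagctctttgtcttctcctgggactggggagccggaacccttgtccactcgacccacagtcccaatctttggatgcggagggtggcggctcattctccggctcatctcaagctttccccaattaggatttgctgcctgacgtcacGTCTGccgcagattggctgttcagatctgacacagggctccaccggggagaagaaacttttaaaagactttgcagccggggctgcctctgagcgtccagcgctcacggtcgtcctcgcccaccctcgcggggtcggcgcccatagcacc

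The Ccn2 window held 2 SMAD cores, 3 TEAD cores and 1 TATA box core. Among 33469 rat promoters of the same length, 14.2% held at least 1 TEAD core and 0.0956% held 3 or more. The TATA box core was present in 14.2% of them. Ltbp2 held 3 SMAD cores, a number or more that 4.17% of promoters had, and Ltbp1 held 1, where 50.1% of promoters held at least 1. The palindrome GTCTAGAC, present in 0.197% of promoters, was in none of the 9 members' windows, and the windows of the other 6 members held none of the searched letters. These matches describe the letters in the window and show no binding.

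In cirrhosis, 6 of the 9 members rose against control and none fell: the 3 ligands, both binding proteins and Ccn2. The receptors and Smad7 did not pass the test. Throughout, a gene was called at an adjusted p below 0.05 in the quasi-likelihood test of edgeR, with Benjamini-Hochberg adjustment over all genes tested. Among all genes tested, 20.2% were called, 13.4% as higher and 6.71% as lower, and 37.1% had an unadjusted p below 0.05. DESeq2 called 7 of the 9 members, against 27.8% of all genes. In 5 of the 9 members the lowest cirrhosis rat lay above the highest control, against 11.2% of all genes higher and 9.03% lower without overlap.

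**Figure D1:**
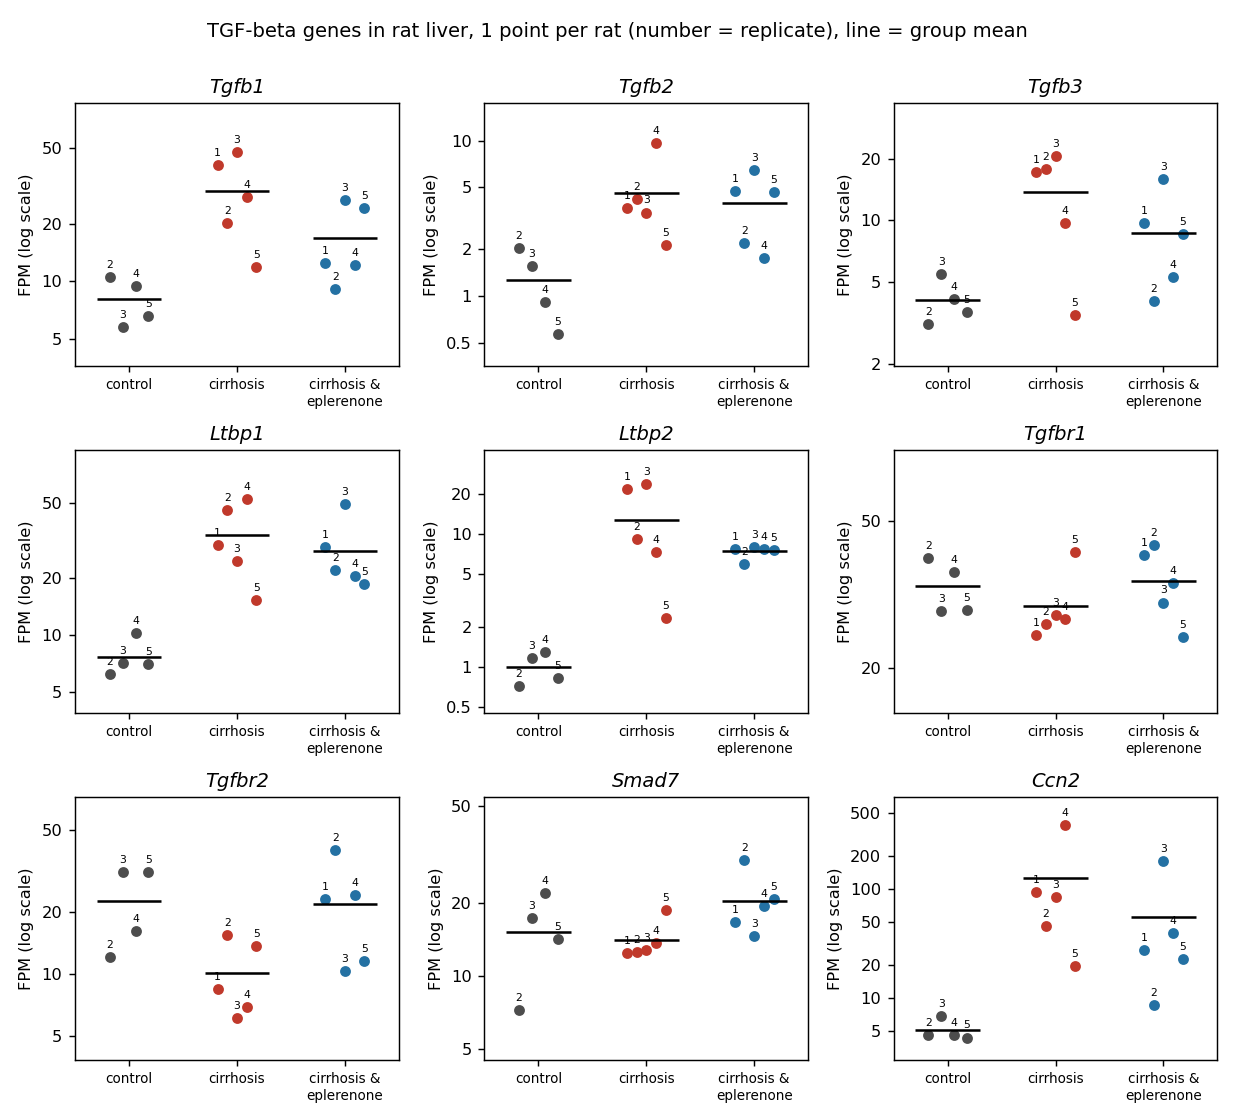
FPM (log axis) of the 9 members in each rat, 1 point per rat with its replicate number, a line at each group mean, for control (4 rats), cirrhosis (5) and cirrhosis & eplerenone (5). All cirrhosis points of Tgfb1, Tgfb2, Ltbp1, Ltbp2 and Ccn2 lie above all controls, and replicate 5 is the lowest cirrhosis point in each of them.

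Tgfb1 (ENSRNOG00000020652, chromosome 1), the main TGF-beta ligand of the liver, was at 10.5, 5.78, 9.46 and 6.55 FPM in control replicates 2 to 5. Cirrhosis replicates 1 to 5 had 40.8, 20.3, 47.7, 27.7 and 11.8 FPM. Cirrhosis & eplerenone replicates 1 to 5 had 12.5, 9.14, 26.8, 12.1 and 24.2 FPM. All cirrhosis rats lay above all controls, with replicate 5 close to the highest control, and the eplerenone group split into 3 rats near the highest control and 2 at the level of the middle cirrhosis rats. Tgfb1 was 3.67-fold higher in cirrhosis than in control (95% interval 2.00 to 6.74, log2FC 1.88, SE 0.41, edgeR adjusted p = 0.00728). It was called in all 14 fits that left out 1 rat each.

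Tgfb2 (ENSRNOG00000002418, chromosome 13), a ligand best known from development, was the least abundant of the ligands in counts, with 9 to 34 counts per control library. Its level was 2.05, 1.56, 0.92 and 0.57 FPM in the controls, 3.72, 4.24, 3.45, 9.64 and 2.14 FPM in cirrhosis, and 4.75, 2.19, 6.52, 1.75 and 4.70 FPM in cirrhosis & eplerenone. Cirrhosis and control did not overlap, but cirrhosis replicate 5 exceeded the highest control only slightly. The rise in cirrhosis was 3.62-fold (95% interval 1.68 to 7.81, log2FC 1.86, SE 0.52, edgeR adjusted p = 0.0233). The call was lost without control replicate 3 (edgeR adjusted p = 0.05), control replicate 4 (0.0655), control replicate 5 (0.0755) or cirrhosis replicate 4 (0.0641).

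Tgfb3 (ENSRNOG00000009867, chromosome 6), the third ligand, lay at 3.14, 5.49, 4.15 and 3.56 FPM in control, at 17.3, 17.8, 20.7, 9.74 and 3.45 FPM in cirrhosis, and at 9.76, 4.07, 15.9, 5.31 and 8.63 FPM in cirrhosis & eplerenone. Of the cirrhosis rats, 4 exceeded all controls and replicate 5 fell inside the control range. Tgfb3 rose 3.37-fold in cirrhosis (95% interval 1.68 to 6.76, log2FC 1.75, SE 0.47, edgeR adjusted p = 0.0197). Without control replicate 2 or control replicate 5 the adjusted p was 0.0543 or 0.0625.

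Ltbp1 (ENSRNOG00000033090, chromosome 6) codes for the binding protein that links latent TGF-beta to the matrix. Controls had 6.21, 7.11, 10.3 and 7.00 FPM, cirrhosis rats 30.1, 46.4, 24.6, 53.0 and 15.4 FPM, and cirrhosis & eplerenone rats 29.2, 22.2, 49.7, 20.7 and 18.7 FPM. Both CCl4-treated groups lay wholly above control, and they overlapped each other along most of their range. The rise in cirrhosis was 4.43-fold (95% interval 2.57 to 7.66, log2FC 2.15, SE 0.37, edgeR adjusted p = 0.00207).

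Ltbp2 (ENSRNOG00000012094, chromosome 6) codes for a microfibril protein of the same family that, unlike Ltbp1, does not bind latent TGF-beta. It was near 1 FPM in each control (0.72, 1.16, 1.28 and 0.83 FPM). Cirrhosis rats spread widely, at 21.5, 9.06, 23.5, 7.23 and 2.32 FPM, whereas cirrhosis & eplerenone rats were close together at 7.72, 5.95, 7.93, 7.62 and 7.54 FPM. The coefficient of variation was 73.0% among cirrhosis rats against 10.9% among cirrhosis & eplerenone rats, and this difference in spread was not tested. Ltbp2 was 12.7-fold higher in cirrhosis than in control (95% interval 5.64 to 28.4, log2FC 3.66, SE 0.55, edgeR adjusted p = 0.00116). Ltbp1 and Ltbp2 were called in all 14 fits with 1 rat left out.

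Tgfbr1 (ENSRNOG00000007036, chromosome 5) codes for the type I receptor, the kinase that phosphorylates SMAD2 and SMAD3. Its level was 39.8, 28.6, 36.3 and 28.7 FPM in control, 24.6, 26.4, 27.9, 27.2 and 41.3 FPM in cirrhosis, and 40.5, 43.0, 30.1, 33.9 and 24.3 FPM in cirrhosis & eplerenone. Cirrhosis replicates 1 to 4 lay just below the lowest control, while replicate 5 was the highest of its group and above all controls. The fold change against control was 0.885 (95% interval 0.66 to 1.19, edgeR adjusted p = 0.525), and its sign turned with total counts in place of TMM library sizes (log2FC -0.18 and 0.10).

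Tgfbr2 (ENSRNOG00000013265, chromosome 8) codes for the type II receptor, which binds the ligand first. It was at 12.1, 31.4 and 31.1 FPM in control replicates 2, 3 and 5, and control replicate 4, with 265 counts, was the second lowest of the controls. It was at 8.49, 15.6, 6.15, 6.92 and 13.6 FPM in cirrhosis, and 23.2, 39.9, 10.4, 24.2 and 11.6 FPM in cirrhosis & eplerenone. Of the cirrhosis rats, 3 lay below the lowest control, and the other 2 were within the lower part of the control range. The level in cirrhosis was 0.448 times that in control (95% interval 0.244 to 0.821, log2FC -1.16, SE 0.41), with an adjusted p of 0.0576 in edgeR and 0.0297 in DESeq2. The value stood at the threshold: it passed in edgeR without control replicate 2, cirrhosis replicate 2, cirrhosis replicate 5, cirrhosis & eplerenone replicate 2 or cirrhosis & eplerenone replicate 3 (adjusted p between 0.0386 and 0.0454).

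Smad7 (ENSRNOG00000018359, chromosome 18) codes for the inhibitory SMAD that TGF-beta induces and that blocks the type I receptor. Its level was 7.24, 17.3, 21.9 and 14.2 FPM in control, 12.4, 12.6, 12.8, 13.6 and 18.7 FPM in cirrhosis, and 16.6, 30.0, 14.6, 19.3 and 20.6 FPM in cirrhosis & eplerenone. The cirrhosis rats lay inside the control range, and 1 cirrhosis & eplerenone rat, replicate 2, exceeded all others. Against control the fold change in cirrhosis was 0.925 (95% interval 0.614 to 1.39, edgeR adjusted p = 0.786). Its log2FC was -0.11, and 0.17 with total counts or 0.12 without control replicate 4.

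Ccn2 (ENSRNOG00000015036, chromosome 1), also called connective tissue growth factor, codes for a matricellular protein that TGF-beta and YAP induce. It had the largest change of the 9 members. Controls were at 4.58, 6.88, 4.58 and 4.32 FPM, cirrhosis rats at 94.5, 45.7, 85.0, 385 and 19.6 FPM, and cirrhosis & eplerenone rats at 27.6, 8.64, 179, 39.2 and 22.5 FPM. Every CCl4-treated rat exceeded every control, and the CCl4-treated rats themselves ranged from 138 to 7505 counts. Ccn2 was 24.7-fold higher in cirrhosis (95% interval 5.9 to 103, log2FC 4.63, SE 0.97, edgeR adjusted p = 0.00589), and without cirrhosis replicate 4, the rat at 385 FPM, the log2FC was 3.60 and the gene was still called.

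With eplerenone, none of the 9 members was called against cirrhosis in edgeR or DESeq2, and 2 had an unadjusted p below 0.05 in edgeR. Among all genes tested, edgeR called 0.0139%, all of them higher and 0% lower, 14.4% had an unadjusted p below 0.05, and DESeq2 called 0.514%. No member separated the groups without overlap, against 0.423% of genes higher and 0.541% lower. The 2 members were Tgfbr2, at 2.15 times its level in cirrhosis (95% interval 1.20 to 3.83, edgeR adjusted p = 0.312, unadjusted p = 0.013), and Tgfb1, at 0.572 times (95% interval 0.333 to 0.983, edgeR adjusted p = 0.336, unadjusted p = 0.0439). For the other 7 the intervals allowed changes of either direction. The fold change was 0.86 for Tgfb2 (95% interval 0.44 to 1.68), 0.635 for Tgfb3 (0.341 to 1.18), 0.83 for Ltbp1 (0.515 to 1.34) and 0.579 for Ltbp2 (0.304 to 1.1). It was 1.17 for Tgfbr1 (0.884 to 1.54), 1.44 for Smad7 (0.98 to 2.12) and 0.441 for Ccn2 (0.144 to 1.35). The Ccn2 difference rested on single rats, with a log2FC of -1.18 over all rats, -0.11 without cirrhosis replicate 4 and -2.39 without cirrhosis & eplerenone replicate 3.

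**Figure D2:**
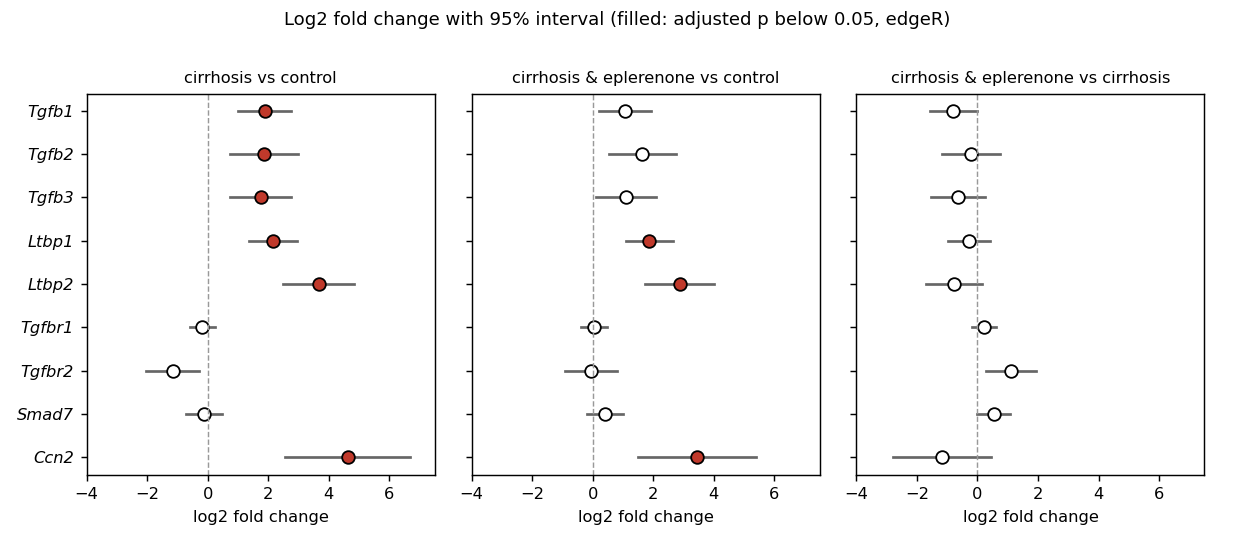
Log2FC (x axis) with its 95% interval (bar) for each member in the 3 comparisons, from the edgeR fit, with filled points where the adjusted p was below 0.05. In cirrhosis vs control 6 points are filled, in cirrhosis & eplerenone vs control 3 (Ltbp1, Ltbp2 and Ccn2), and in cirrhosis & eplerenone vs cirrhosis none.

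Against control, the cirrhosis & eplerenone group had 3 calls, Ltbp1, Ltbp2 and Ccn2, all higher. These comparisons share their control or cirrhosis rats, so their values are given side by side and are not independent. Among all genes tested, 5.22% were called, 4.33% higher and 0.895% lower, 20.5% had an unadjusted p below 0.05, and DESeq2 called 10.6% of all genes and 4 members. Groups did not overlap for 3 of the 9 members, against 6.42% of all genes higher and 4.46% lower. Ltbp1 was 3.68-fold above control (95% interval 2.14 to 6.32, log2FC 1.88, edgeR adjusted p = 0.0104) and Ltbp2 was 7.33-fold above it (3.33 to 16.1, log2FC 2.87, edgeR adjusted p = 0.00819).

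Ccn2 was 10.9-fold higher in cirrhosis & eplerenone than in control (95% interval 2.81 to 42.2, log2FC 3.44, SE 0.92, edgeR adjusted p = 0.0418). This call was made in 7 of 14 fits that left out 1 rat, and was lost without any 1 control (adjusted p from 0.0947 to 0.125), cirrhosis replicate 1 (0.0547), or cirrhosis & eplerenone replicate 1 (0.0505) or 3 (0.124). Without replicate 3, at 179 FPM, the log2FC was 2.27. The ligands lay between control and cirrhosis in their group means and were not called, with fold changes against control of 2.1 for Tgfb1 (edgeR adjusted p = 0.139), 3.12 for Tgfb2 (0.0799) and 2.14 for Tgfb3 (0.188). DESeq2 called Tgfb2 (adjusted p = 0.0182), as edgeR did without cirrhosis & eplerenone replicate 2 (adjusted p = 0.047). For Tgfbr2 the fold change was 0.962 (95% interval 0.526 to 1.76), for Tgfbr1 1.03 (0.768 to 1.38) and for Smad7 1.33 (0.884 to 2.02).

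The calls between eplerenone and cirrhosis depended on 2 rats. With cirrhosis replicate 5 and cirrhosis & eplerenone replicate 3 both left out, 4 members were called: Tgfb1 and Tgfb3 fell (log2FC -1.25 for each, edgeR adjusted p = 0.0375 and 0.0307), Ccn2 fell (log2FC -2.65, edgeR adjusted p = 0.0233), and Tgfbr2 rose (log2FC 1.39, edgeR adjusted p = 0.0493). Over all genes, 1292 (8.96%) were then called in place of 2. These rats were picked for their expression, so the calls without them are a description and not a test. Leaving out any 1 rat alone gave 0 called members. In the comparisons with control, leaving out both rats gave 7 calls in cirrhosis beside 34% of all genes, with Tgfbr2 as the added gene (log2FC -1.28, edgeR adjusted p = 0.0282), and 3 calls in cirrhosis & eplerenone beside 4.74%.

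The eplerenone difference was also read within each label prefix, in groups of 2 or 3 rats. Among rats of prefix 15 (3 cirrhosis, 2 cirrhosis & eplerenone) Tgfb1 was lower with eplerenone by a log2FC of -1.77, and among rats of prefix 20 (2 and 3 rats) the log2FC was 0.11. Tgfb3 and Ltbp2 had opposite signs in the same way (-1.45 and 0.61, -1.43 and 0.70). Ccn2 was lower in both (-2.07 and -1.32), and Tgfbr2 was higher in both (1.61 and 0.61). No member was called within prefix 15 (edgeR adjusted p of 0.0957 or above), where 23 of all 14417 genes were called, or within prefix 20, where 0 were. No member passed the test of the difference between prefixes, for which the edgeR adjusted p lay at 0.381 or above. This test called 0 of all 14417 genes, with 1746 at an unadjusted p below 0.05. Members with an unadjusted edgeR p below 0.05 in it were Ltbp2 (0.0141), Tgfb1 (0.0207), Tgfb3 (0.0271) and Tgfbr1 (0.0294). With the prefix as a covariate the log2FC over both was -0.83 for Tgfb1, -1.69 for Ccn2 and 1.11 for Tgfbr2, and none was called. Cirrhosis replicate 5 and cirrhosis & eplerenone replicate 3 both had prefix 20.

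**Figure D3:**
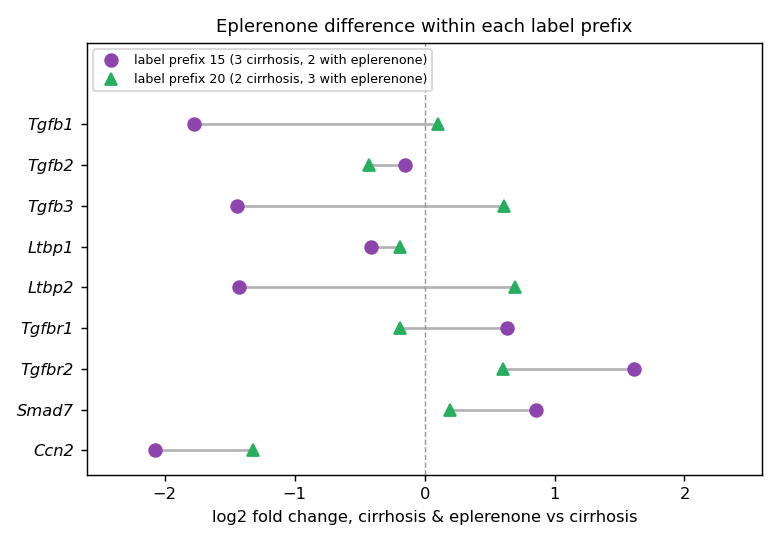
Log2FC of cirrhosis & eplerenone vs cirrhosis (x axis) for each member within label prefix 15 (circles, 3 and 2 rats) and prefix 20 (triangles, 2 and 3 rats), joined by a line. Tgfb1, Tgfb3, Ltbp2 and Tgfbr1 lie on opposite sides of 0 in the 2 prefixes, whereas Ccn2 lies below 0 and Tgfbr2 above 0 in both.

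Ligand and receptor were set against each other within each rat as the ratio of Tgfb1 to Tgfbr2 FPM. This ratio has a meaning between rats only, since FPM are not corrected for transcript length. The ratio was 0.87, 0.184, 0.585 and 0.211 in control and 4.81, 1.30, 7.75, 4 and 0.869 in cirrhosis. In cirrhosis & eplerenone it was 0.539, 0.229, 2.59, 0.501 and 2.09. Cirrhosis replicates 1 to 4 had ratios above every control, whereas replicate 5 stood level with the highest control. In the eplerenone group, replicates 1, 2 and 4 were within the control range and replicates 3 and 5 above it. The median ratio was 0.398 in the controls, 4 in the cirrhosis rats and 0.539 with eplerenone. The ratio was not tested. It joins the 2 members with an unadjusted p below 0.05 between eplerenone and cirrhosis, which moved in opposite directions, so it widens differences already seen in them. Neither was called in that comparison (edgeR adjusted p = 0.336 for Tgfb1 and 0.312 for Tgfbr2).

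**Figure D4:**
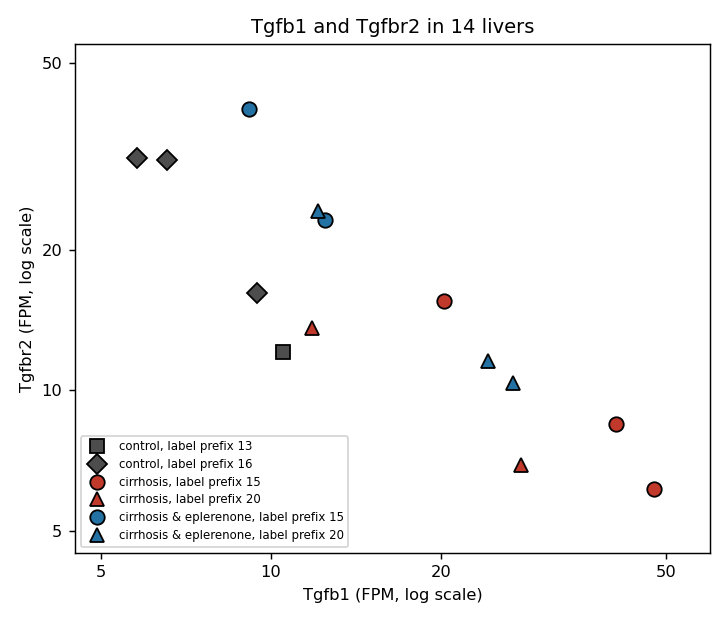
Tgfb1 (x axis) against Tgfbr2 (y axis), both in FPM on log axes, 1 point per rat with colour for the group and shape for the label prefix. Rats with more Tgfb1 tend to have less Tgfbr2, and cirrhosis replicates 1, 3 and 4 sit at the lower right, with Tgfbr2 between 6.15 and 8.49 FPM.

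For each member the tested protein coding gene with the most alike pattern was found by Pearson correlation of log2 FPM over the 14 rats. The rats fall into 3 groups, and a difference between groups alone gives high values, so these are descriptions. The closest gene was Cyba for Tgfb1 (r = 0.985), Zmynd15 for Tgfb2 (0.953), Vwf for Tgfb3 (0.97), Ppt1 for Ltbp1 (0.971) and Col1a1 for Ltbp2 (0.975). It was Atg14 for Tgfbr1 (0.907), Nnt for Tgfbr2 (0.977), Fbxl4 for Smad7 (0.809) and Syt1 for Ccn2 (0.955). Tgfb1 was also close to Lgals3 (0.981) and Myl12a (0.98), and Ltbp2 to Mmp2 (0.964). Over the 10 CCl4-treated rats alone, r was 0.979 for Tgfb1 with Cyba, 0.985 for Tgfbr2 with Nnt, 0.896 for Ltbp2 with Col1a1 and 0.892 for Ccn2 with Syt1.

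Marker genes of the liver's cell types differed in how they varied over the groups, and the sums of cholangiocyte markers and of mesothelium and smooth muscle markers separated both CCl4-treated groups from control. Markers that rose or fell are those called in edgeR, beside 13.4% of all genes higher and 6.71% lower in cirrhosis. The summed level of the 10 hepatocyte markers was 158200 to 175100 FPM in control. It was 90680 to 159500 FPM in the cirrhosis group and 86810 to 148600 FPM with eplerenone, and 1 of the 10, Hnf4a, fell in cirrhosis. The 8 cholangiocyte markers summed to 30.7 to 41.6, 70.7 to 167 and 68.9 to 121 FPM, and 7 of the 8 rose in cirrhosis. The 6 markers of mesothelium and vascular smooth muscle summed to 8.14 to 12.2, 31.1 to 108 and 13.8 to 52.6 FPM, and 2 of the 5 tested rose in cirrhosis. The 10 markers of stellate cells and myofibroblasts overlapped between groups in their sum (143 to 217, 153 to 208 and 156 to 243 FPM), with 3 higher and 1 lower in cirrhosis. Lymphocyte markers summed to 12.0 to 20.8, 25.4 to 40.2 and 17.3 to 40.0 FPM (4 of 9 tested rose). Macrophage markers summed to 335 to 516, 151 to 495 and 251 to 559 FPM (1 higher and 2 lower of 10), and endothelial markers to 249 to 300.2, 178 to 396 and 214 to 316 FPM (1 higher and 2 lower of 9). Platelet markers summed to 26.1 to 30.9, 20.1 to 45.5 and 14.2 to 35.0 FPM, with Pf4 higher and Itgb3 lower in cirrhosis among 3 tested and with Gp1bb at 0 in every rat. Cirrhosis replicate 5, the lowest cirrhosis rat for all 3 ligands, both binding proteins and Ccn2, had the highest hepatocyte sum and the lowest cholangiocyte sum of its group. The part of these shifts in the member values was not tested.

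The wider pathway was read from 7 lists with 97 further genes, of which 96 were in the table and 89 were tested. The low counts of Itgb8, Postn, Tnc, Adam12, Itga11, Ccn4 and Ccn6 kept them out of the test, and Col1a2 was not analysed here. In cirrhosis 31 of the 89 were called, 27 higher and 4 lower, against 20.2% of all genes, and DESeq2 called 44, against 27.8%. Their median log2FC was 0.07, beside -0.01 over all genes tested. With eplerenone against cirrhosis 0 of 89 were called in edgeR or DESeq2, against 0.0139% and 0.514% of all genes. An unadjusted p below 0.05 in edgeR was found for 11 of the 89, against 14.4% of all genes. In cirrhosis & eplerenone against control 16 were called, 15 higher and 1 lower, against 5.22% of all genes, and DESeq2 called 24, against 10.6%.

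Genes that hold TGF-beta latent or free it were 12 of the tested. In cirrhosis 4 rose and 1 fell, against 13.4% of all genes higher and 6.71% lower, with a median log2FC of 0.16. Ltbp3, the third binding protein, had 3.01 ± 0.584 FPM in control (SD, n = 4), 12.9 ± 5.12 in cirrhosis (n = 5) and 8.98 ± 2.37 in cirrhosis & eplerenone (n = 5), a log2FC of 2.10 in cirrhosis (edgeR adjusted p = 0.00135). Itgb6, the integrin subunit that with alpha v frees TGF-beta at epithelial cells, went from 0.429 ± 0.302 to 5.03 ± 0.788 FPM in cirrhosis (log2FC 3.54, edgeR adjusted p = 0.00182) and had 3.4 ± 2.11 FPM with eplerenone. Itgav, the alpha v subunit, had a log2FC of -1.10 in cirrhosis and lay below control without overlap. It was not called in edgeR (adjusted p = 0.0585), whereas DESeq2 called it (adjusted p = 0.0334). Fbn1, the microfibril protein fibrillin 1 to which binding proteins attach, rose by a log2FC of 1.51 (edgeR adjusted p = 0.00501). Bmp1, a protease that cleaves procollagens and Ltbp1, fell from 150 ± 11.4 to 98.9 ± 10.0 FPM in cirrhosis (log2FC -0.60, edgeR adjusted p = 0.00963), and control and cirrhosis did not overlap. With total counts in place of TMM its log2FC was -0.31 and the call was lost (edgeR adjusted p = 0.143).

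Of 6 coreceptors and related receptors, 1 was called in cirrhosis, a share no higher than the 20.2% of all genes. Acvrl1, a type I receptor of endothelium, rose by a log2FC of 1.04 (edgeR adjusted p = 0.0495) and was called in 3 of 14 fits with 1 rat left out. Tgfbr3, the coreceptor betaglycan, was at 10.8 ± 1.99, 9.58 ± 2.09 and 12.1 ± 6.17 FPM in control, cirrhosis and cirrhosis & eplerenone, and passed no comparison.

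None of the 7 signal transducers was called in cirrhosis in edgeR, against 20.2% of all genes, and their median log2FC was -0.27. In edgeR 3 had an unadjusted p below 0.05, against 37.1% of all genes, and DESeq2 called 2, against 27.8%. Cirrhosis and control did not overlap for 2, both lower, against 9.03% of all genes. Smad2 was at 10.0 ± 1.42 FPM in control, 9.31 ± 1.12 FPM in cirrhosis, and 10.2 ± 0.779 FPM after eplerenone was added. Smad3, the other SMAD that the TGF-beta receptors phosphorylate, was at 12.7 ± 3.09, 15.9 ± 4.75 and 15.5 ± 4.83 FPM. Smad4, their shared partner, was at 14.3 ± 1.63, 7.31 ± 4.13 and 12.5 ± 3.38 FPM, and its log2FC in cirrhosis was -0.96 (edgeR adjusted p = 0.0782). Its lowest values, 3.05 and 2.59 FPM, were those of cirrhosis replicates 1 and 3, which were the rats with the most Tgfb1.

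Of 10 genes that damp the signal or turn over its parts, 2 rose in cirrhosis, a share near the 20.2% of all genes called. Yet 6 of the 10 had a negative log2FC, and the median of the list was -0.44. In edgeR 5 had an unadjusted p below 0.05, 2 higher and 3 lower, against 37.1% of all genes. DESeq2 called 4, against 27.8%. Pmepa1, a TGF-beta target that binds SMAD2 and SMAD3, rose by a log2FC of 2.98 (SE 0.46, edgeR adjusted p = 0.00119), from 3.26 ± 0.878 to 25.8 ± 14.4 FPM, and was at 14.3 ± 6.67 FPM with eplerenone. Tgif1, a SMAD corepressor, rose by a log2FC of 0.81 (edgeR adjusted p = 0.0271) and was called in 8 of 14 fits with 1 rat left out.

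Of the target genes, 20 were tested. In cirrhosis 9 rose and 1 fell, against 13.4% of all genes higher and 6.71% lower, with a median log2FC of 1.04. Lox, a collagen crosslinking enzyme, rose by a log2FC of 4.29 (SE 0.69, edgeR adjusted p = 0.00144), and its level with eplerenone was 4.57 ± 3.07 FPM beside 13.04 ± 8.46 FPM in cirrhosis (log2FC -1.50, edgeR adjusted p = 0.312). Cthrc1, a secreted protein of activated fibroblasts, had 0 counts in every control and 0.238 to 2.37 FPM in cirrhosis, a mean at least 5.25-fold above the 3 counts per control library that a count of 0 allows, and with Cthrc1 at this bound the median of the list was again 1.04. Fn1, which codes for fibronectin and is also made by hepatocytes, fell by 0.62 on the log2 scale (edgeR adjusted p = 0.0425, called in 5 of 14 fits with 1 rat left out). Acta2, Tagln, Timp1, Col1a1, Col3a1 and Cdkn2b also rose.

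In the BMP and activin branch, which uses related ligands and receptors, 26 genes were tested. In cirrhosis 7 rose and 2 fell, against 13.4% of all genes higher and 6.71% lower, with a median log2FC of -0.16. Bmp4 rose by a log2FC of 2.01 (edgeR adjusted p = 0.00415). Fst, the activin antagonist follistatin, had 1 count in all controls together and 0.298 to 3.22 FPM in cirrhosis (edgeR adjusted p = 0.00429), and Fstl3, its relative, rose as well, from at most 0.405 FPM in control to 1.01 to 4.21 FPM (edgeR adjusted p = 0.00849). Gdf2, the liver ligand BMP9, fell from 26.1 ± 5.95 to 8.43 ± 4.74 FPM (log2FC -1.64, edgeR adjusted p = 0.0255) and was at 20.2 ± 11.0 FPM with eplerenone. Inhbc, an activin subunit of hepatocytes, fell by 1.21 on the log2 scale (edgeR adjusted p = 0.0408), and by 1.82 without cirrhosis replicate 5, which was at 149 FPM (edgeR adjusted p = 0.000371). The calls of Gdf2 and Inhbc were made in 10 and 7 of 14 fits with 1 rat left out.

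The relatives of Ccn2 and other targets of YAP and TEAD were 8 of the tested genes. In cirrhosis 4 rose and none fell, against 13.4% of all genes higher and 6.71% lower, with a median log2FC of 1.02. Ajuba, a LIM protein that restrains the kinases upstream of YAP, was close together within control and within cirrhosis, at 11.6 ± 0.804 FPM in control (SD, n = 4), 32.3 ± 1.78 in cirrhosis (n = 5) and 29.1 ± 7.76 in cirrhosis & eplerenone (n = 5, log2FC 1.48 in cirrhosis, edgeR adjusted p = 0.000515). Ccn1, a relative of Ccn2 that YAP also induces, rose by a log2FC of 1.32 (edgeR adjusted p = 0.0207), Ccn5 by 2.76 (0.0122) and Ankrd1 by 2.47 (0.0149). Their levels with eplerenone lay between those of control and cirrhosis in the mean, at 25.6, 2.41 and 2.2 FPM, and none of the 3 was called against cirrhosis.

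**Figure D5:**
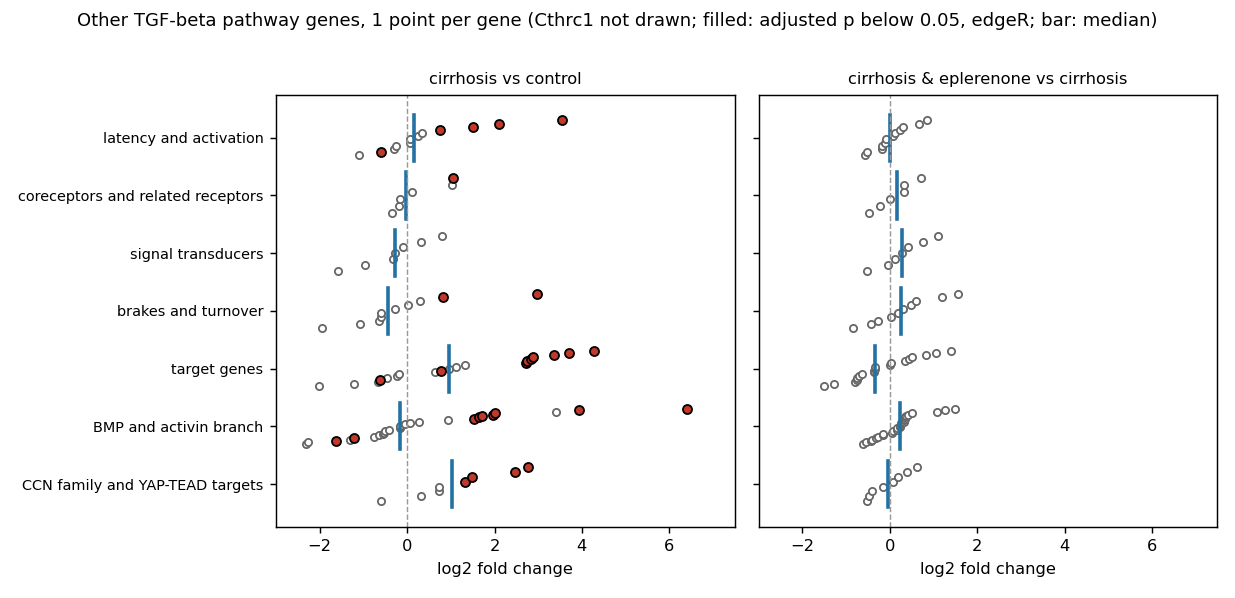
Log2FC (x axis) of the further pathway genes in 7 lists, 1 point per gene, for cirrhosis vs control (left) and cirrhosis & eplerenone vs cirrhosis (right), with filled points where the edgeR adjusted p was below 0.05 and a bar at each list's median. Cthrc1, at 0 in all controls, is not drawn, the filled points on the left reach furthest for target genes and the BMP and activin branch, and no point is filled on the right.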

How the data were processed

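Poly(A)-selected RNA of rat livers with an RNA integrity number above 7 had been sequenced in pairs of 150 bases. The deposited table holds raw read counts per gene, which the authors made by alignment to rn6 with HISAT2 (version 2.1.0 in the submitters' processing notes) and featureCounts over exons, where a read with several alignments was counted for each of them. Counts of genes with near-identical copies are therefore uncertain, and reads of overlapping genes may not be separated. The table held 0 columns of other samples.

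Counts were analysed in R 4.3.3 with edgeR 4.0.16. Genes were kept by filterByExpr (smallest count 10), libraries were scaled by TMM, and all 3 groups entered 1 quasi-likelihood model with Benjamini-Hochberg adjustment over all 14417 genes. FPM are counts per 1000000 of the scaled library size, and floors and depth cover counting error only. Alternatives were DESeq2 1.42.0, other scalings and filters, a replicate block, the label prefix and left-out rats. The rats are separate animals, so p-values weigh group differences against the spread between the rats analysed.

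The members, lists and rules were chosen with earlier results of these data known. Genes named were the 9 members in every comparison, from each list the called genes in cirrhosis with the 3 largest rises and 3 largest falls, always Smad2, Smad3, Smad4, Tgfbr3 and Ccn1, and for each member the most alike of the tested protein coding genes with a mean of at least 1 FPM, on log2 FPM with a prior count of 2. A gene that this rule names is counted in its list and not reported here. Other names in the text are called, untested or marker genes of the lists, and Itgav, named as the partner of Itgb6.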

Additional observations from a re-analysis of the deposited data

Results flagged for a closer look

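In 11 of the 96 groups of rats examined (32 genes in 3 groups), the highest or lowest rat stood further from the others than Dixon's 95% critical value allows. Chance alone picks about 1 in 20 groups where these are independent and normally spread. The genes here share their rats and FPM need not be normal, so the number picked cannot be held against that rate. Ccn2 was picked in all 3 groups, at 6.88 FPM in control replicate 3 (others 4.32 to 4.58 FPM), 385 FPM in cirrhosis replicate 4 (others 19.6 to 94.5 FPM) and 179 FPM in cirrhosis & eplerenone replicate 3 (others 8.64 to 39.2 FPM). Cirrhosis replicate 4 was also high for Tgfb2, at 9.64 FPM beside 2.14 to 4.24 FPM in the others.

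Cirrhosis replicate 5 was picked for 4 genes. Tgfbr1 was at 41.3 FPM (others 24.6 to 27.9 FPM), Smad7 at 18.7 FPM (others 12.4 to 13.6 FPM), Inhbc at 149 FPM (others 34.6 to 49.4 FPM) and Tgif1 at 14.6 FPM (others 27.6 to 31.7 FPM). Its Inhbc level was within the control range of 98.1 to 179 FPM.

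Ltbp2 was low in cirrhosis & eplerenone replicate 2, at 5.95 FPM beside 7.54 to 7.93 FPM. Bmp1 was low in control replicate 5, at 132.9 FPM beside 154.2 to 158 FPM. Fst was at 0.0603 FPM in control replicate 2, a single count, and at 0 in the other controls, where the rule picks any count above 0.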

How the results depend on the processing

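Of the 9 members, 6, 0 and 3 were called in cirrhosis against control, cirrhosis & eplerenone against cirrhosis, and cirrhosis & eplerenone against control. With 1 rat left out in turn these counts ran from 4 to 7, 0 to 0 and 2 to 4, and those of the 89 further pathway genes (31, 0 and 16) from 21 to 47, 0 to 0 and 5 to 25, the lowest without control replicate 5 (21 and 5) and the highest without cirrhosis replicate 5 (47) or cirrhosis & eplerenone replicate 2 (25). Without control replicate 2 or 3 the last count was 10. Without both cirrhosis replicate 5 and cirrhosis & eplerenone replicate 3, members called were 7, 4 and 3 and pathway genes 48, 14 and 17. With at least 10 counts in every sample 8 pathway genes were called in the last comparison. This filter also removed called genes with few control counts from the test, among them Itgb6, Lox, Fst and Fstl3. Tgfb2, at 9 counts in 1 control, was no longer tested either, and the Ccn2 call in the last comparison was lost. With a replicate block the members called were 5, 0 and 2 and the pathway genes 25, 0 and 10. Tgfb2 in cirrhosis (log2FC 1.85, edgeR adjusted p = 0.0635) and Ccn2 in cirrhosis & eplerenone (log2FC 2.80, edgeR adjusted p = 0.0817) were the members lost under the block. The labels do not say whether rats with the same replicate number belong together. Of 13 same-numbered pairs, 3 had deviations that correlated above 0.1, over a range of -0.333 to 0.187. Pairs with different numbers were not compared, so these values cannot show whether the numbers carry a pairing.

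Total counts in place of TMM moved the median log2FC of all genes by 0.29, 0.03 and 0.32, and turned the sign of values that were not called: Tgfbr1 (0.10), Smad7 (0.17), Tgfbr3 (0.14) and Smad2 (0.20) in cirrhosis, and Tgfbr2 (0.20), Smad4 (0.12) and Fn1 (0.0495) in cirrhosis & eplerenone against control. In that comparison Tgfbr3 turned under the block (-0.0204) and, without both of these rats (-0.0368), as did Tgfbr2 (0.12). Total counts also ended the calls of Bmp1 (log2FC -0.31, edgeR adjusted p = 0.143), Fn1 (-0.33, 0.265) and Inhbc (-0.96, 0.0503) in cirrhosis and of Bmp1 (-0.21, 0.395) in cirrhosis & eplerenone against control. Ccn5 turned with the prefix as covariate (0.0661, eplerenone against cirrhosis). With 1 rat left out, uncalled values that crossed 0 ran from -0.34 to 0.12 for Smad7 in cirrhosis. Against cirrhosis they ran from -0.49 to 0.24 for Tgfb2, -0.14 to 0.14 for Smad3, -0.37 to 0.0379 for Fbn1 and -0.47 to 0.0165 for Bmp4. In cirrhosis & eplerenone against control they ran from -0.0501 to 0.14 for Tgfbr1, -0.39 to 0.14 for Tgfbr2, -0.0508 to 0.11 for Smad2 and -0.0361 to 0.34 for Tgfbr3. The cause of these changes was not tested. Depth limits genes with few control counts, among them Tgfb2, with 9 to 34 counts per control library, and Ltbp2, with 12 to 21.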
